A study of Mus musculus with 4 samples.

Results

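The SR and hnRNP genes encode the 2 large families of proteins that decide which exons a messenger RNA keeps. Members were the rows whose nearest gene was named Srsf followed by a number, Hnrnp followed by a letter, Tra2a or Tra2b. This gave 26 of 26614 gene names and 69 of 80929 regions. They comprised 8 SR genes with 18 regions, both Tra2 genes with 7 regions, and 16 hnRNP genes with 44 regions. Values near Hnrnpa1, Hnrnpdl, Hnrnph2, Hnrnpll, Srsf2, Srsf5 and Srsf7, which a RefSeq gene list also names, were not analysed here.

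RAW264.7, an established mouse line with macrophage properties, was profiled with ATAC-seq, where a transposase inserts adapters into open chromatin. There were 2 libraries titled CuNZ@Gel, which the series title describes as a nanozyme hydrogel, and 2 titled Gel, each from 1000000 cells per well kept for 48 h in 12-well plates. The treatment text is shared by all 4 records and names CuNZ@Gel alone, so what the Gel cells were given rests on the titles. Nothing says that the 2 libraries of a group came from separate cultures, so every p-value here measures the spread between libraries, which may be technical.

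SR proteins carry RNA-recognition domains and a tail rich in arginine and serine, and mostly promote the use of exons whose enhancer sequences they bind. hnRNP proteins coat nascent transcripts and often oppose them, silencing exons or hiding splice sites. Both families regulate their own transcripts through exons that lead to decay, and macrophages change splicing widely when they meet inflammatory signals. Accessibility near such a gene is a property of its chromatin and is not a level of its RNA or protein.

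Values are given in RPM, reads scaled to 1000000 effective reads, summed over the regions nearest to a gene unless a single region is named. Over all regions, the deposited RPM add up to 902256 and 909586 in CuNZ@Gel against 1099025 and 1108703 in Gel. The deposited scale thus sets CuNZ@Gel lower than scaling by reads in regions alone does. Changes are CuNZ@Gel minus Gel on the log2(RPM + 1) scale, with a standard error (SE). A gene or region was called when the adjusted p of limma, a linear model fitted across all genes or all regions, was under 0.05. Reads in regions numbered 7438258 and 10234129 for CuNZ@Gel, against 18843013 and 17915691 for Gel. The genome background is a pileup of reads recovered from the fold enrichments of the authors' peaks. It was 1.168 and 1.201 in CuNZ@Gel against 1.003 and 0.962 in Gel. Fewer of the CuNZ@Gel reads thus lay in regions relative to background. In units of 1000000 reads, reads in regions per unit of background were 6.37 and 8.52 in CuNZ@Gel against 18.8 and 18.6 in Gel. Over all regions, strong ones lay lower and weak ones higher in CuNZ@Gel, so values are also given with this trend of change with level removed by cyclic loess. The part that the number of reads in regions, or their share relative to background, plays in these changes was not tested. Of 12 macrophage markers, 8 were lower and 1 higher, against 36.1% and 20.5% of all genes; with the trend removed 2 were lower and 4 higher, against 15.9% and 20.2%. Their summed values were 1180 and 1195 RPM in CuNZ@Gel against 1531 and 1547 RPM in Gel. Of 16 markers of other cell types, 11 were tested, and 2 were lower and 1 higher on either scale. The sums of these markers were 118 and 116 RPM in CuNZ@Gel against 110 and 104 RPM in Gel, and their part in the results was not tested. Col1a2, Krt5, Krt14, Krt18 and Alb were not analysed here.

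Promoter sequence was available in a RefSeq table of GRCm38.p6 for 25 of the 26 members, all but Hnrnpul2. The windows of 300 bases run from 250 before to 50 after the annotated start. The deposited regions are on GRCm39, so no window was placed on a region. The 250 bases before the start are shown for 4 members that have a single region, so that the gene value is that region's value. Hnrnpa0 and Tra2b were called lower with and without the trend, and Hnrnpab and Hnrnpm only with it. Capitals mark the letters of any of the motifs listed after the sequences.

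Hnrnpa0, GRCm38.p6 chr13:58128557-58128806, minus strand: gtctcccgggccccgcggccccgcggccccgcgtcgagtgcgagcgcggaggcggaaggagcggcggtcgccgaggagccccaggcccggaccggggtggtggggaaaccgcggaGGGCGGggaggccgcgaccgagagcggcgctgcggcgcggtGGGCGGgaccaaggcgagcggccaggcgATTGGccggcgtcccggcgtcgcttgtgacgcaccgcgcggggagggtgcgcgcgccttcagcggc

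Tra2b, GRCm38.p6 chr16:22266006-22266255, minus strand: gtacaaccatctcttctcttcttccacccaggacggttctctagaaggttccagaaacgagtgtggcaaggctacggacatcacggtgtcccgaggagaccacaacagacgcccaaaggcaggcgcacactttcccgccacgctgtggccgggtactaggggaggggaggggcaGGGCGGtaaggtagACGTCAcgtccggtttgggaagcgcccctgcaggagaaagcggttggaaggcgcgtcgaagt

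Hnrnpab, GRCm38.p6 chr11:51606882-51607131, minus strand: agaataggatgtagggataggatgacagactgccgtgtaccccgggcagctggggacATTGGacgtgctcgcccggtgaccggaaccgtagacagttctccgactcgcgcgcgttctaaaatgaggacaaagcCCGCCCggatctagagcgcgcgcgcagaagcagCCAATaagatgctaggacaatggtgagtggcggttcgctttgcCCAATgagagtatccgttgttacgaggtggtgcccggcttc

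Hnrnpm, GRCm38.p6 chr17:33685459-33685708, minus strand: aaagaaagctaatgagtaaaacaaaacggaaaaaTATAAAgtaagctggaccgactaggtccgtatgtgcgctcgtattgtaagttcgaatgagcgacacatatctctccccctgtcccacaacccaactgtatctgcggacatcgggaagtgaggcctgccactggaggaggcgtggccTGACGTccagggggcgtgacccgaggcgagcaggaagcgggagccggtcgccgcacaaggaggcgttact

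The stretch before Hnrnpa0 held 81.2% G and C and 46 CG pairs, with 2 GC boxes (GGGCGG) and 1 CCAAT box (CCAAT). The stretch before Tra2b held 60.8% G and C, 1 GC box and 1 copy of the cyclic AMP response core (TGACGT). The stretch before Hnrnpab held 58.4% G and C, 1 GC box and 3 CCAAT boxes, and the one before Hnrnpm held 55.2% G and C, 1 TGACGT and 1 TATA box (TATAAA). Each motif was searched on both strands. Over the whole windows, members were rich in G and C, with a median of 68.3% against 56.3% for 17491 protein-coding genes, and a median of 31 CG pairs against 13. A GC box lay in 20 of 25 members, against 49.2% of all these genes, and a CCAAT box in 15, 60.0% against 42.3%. TGACGT lay in 9 of 25 members, 36.0% against 9.60%: Hnrnpa2b1, Hnrnpa3, Hnrnph1, Hnrnpm, Srsf11, Srsf3, Srsf6, Tra2a and Tra2b. The E-box CACGTG lay in 4 members (16.0% against 8.91%), the ETS core CCGGAAG in 4 (16.0% against 12.9%), TATAAA in 3 (12.0% against 14.8%), and the YY1 core AAGATGGC (3.57% of all genes) and the NRF1 core, searched by its palindromic consensus (1.47%), in 1 each. The AP-1 core TGANTCA lay in 0 of 25 against 8.12%. Motifs were allowed to overlap, and a match of letters is a description of sequence, not evidence of binding.

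Accessibility near most of the splicing factor genes was called lower in CuNZ@Gel with the deposited scaling, while most were not called with the trend removed. Of 26 member genes, all tested, 22 were called lower, 0 higher and 4 in neither direction, against 36.1% of 25900 genes called lower and 20.5% called higher. The median change of the members was -0.58, against -0.10 over all genes. In 23 members both CuNZ@Gel libraries lay below both Gel libraries, against 45.9% of all genes. Summed over all 69 regions, members took 1539 and 1545 RPM in CuNZ@Gel against 2443 and 2501 RPM in Gel. The members' sums are high: the median of their mean log2 values was 6.18, against 4.41 for the sums of all genes, and 22 of 26 lay at or above that. Gene sums of like level were not set beside them, and of all regions in the strongest decile 86.9% were called lower. With the trend removed, 8 members were called lower and 0 higher, against 15.9% of genes lower and 20.2% higher, and their median was -0.12, against -0.02 over all genes. On the genome background scale, where the median of all genes moved to -1.06, all 26 were called lower, against 75.5% of genes. Scaled by reads in regions alone, where the median of all genes moved to 0.15, 16 were called lower and 1, Hnrnpa2b1, higher, against 18.7% and 34.3% of genes.

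**Figure D1:**
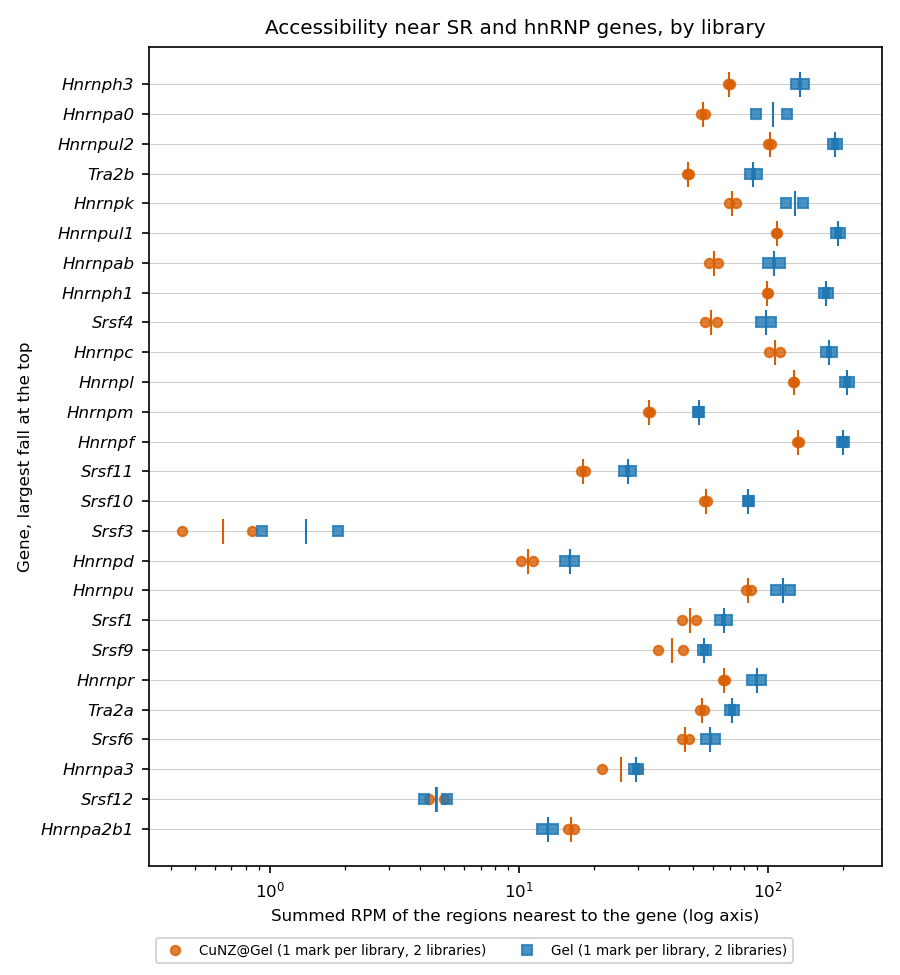
Summed RPM near each member gene (log axis) in each CuNZ@Gel library (circles) and each Gel library (squares), with ticks at the group means (n = 2). Both CuNZ@Gel marks lie left of both Gel marks in 23 of 26 genes.

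Among the SR genes, 6 of 8 were called lower and 0 higher, against 36.1% and 20.5% of all genes, with a median of -0.49. With the trend removed, 3 were lower and 0 higher, against 15.9% and 20.2%, and the median was -0.17. Srsf4, which encodes a large SR protein with a long arginine-serine tail, had the largest called fall of the SR genes with the deposited scaling. It had 55.7 and 62.2 RPM in CuNZ@Gel, against 93.5 and 102 RPM in Gel. The groups were well apart, with a change of -0.72 ± 0.08 (SE, limma adjusted p = 1.14e-07). Both regions of Srsf4 were called lower on both scales: those at chr4:131588023-131589052 and chr4:131600345-131601939 changed by -0.70 ± 0.10 and -0.73 ± 0.11, and with the trend removed by -0.24 and -0.34.

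Srsf1, the founding SR protein, which binds exonic enhancers and also acts in export and translation, had 51.4 and 45.2 RPM in CuNZ@Gel, against 68.6 and 63.9 RPM in Gel. Its change was -0.45 ± 0.08 (limma adjusted p = 0.000128), and 0.11 ± 0.09 with the trend removed (adjusted p = 0.355). Srsf10, which becomes a splicing repressor when it loses its phosphates in heat shock, fell by 0.56 and was at -0.13 without the trend (adjusted p = 0.156). Srsf11 fell by 0.57. The only region near Srsf11 had 17.7 and 18.4 RPM in CuNZ@Gel against 26.5 and 28.0 RPM in Gel, and it stayed lower with the trend removed (-0.31 ± 0.12, adjusted p = 0.0398). Srsf9 fell by 0.43 and Srsf6 by 0.33; neither was called with the trend removed, at -0.21 for Srsf9 and -0.12 for Srsf6. Srsf6 lost its call without Gel replicate 2 (-0.27, limma adjusted p = 0.0569).

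The SR genes that were not called were Srsf3 and Srsf12, both with a single weak region. Srsf3, the smallest SR protein and an export adaptor, had 0.849 and 0.444 RPM in CuNZ@Gel against 1.87 and 0.928 RPM in Gel, which is 7 and 5 reads against 32 and 15 reads. The groups did not overlap, but the change of -0.52 ± 0.34 was not called (limma adjusted p = 0.195). Without the trend it was called at -0.89 ± 0.34 (adjusted p = 0.0384). Srsf12, which can counteract other SR proteins, had 4.97 and 4.36 RPM in CuNZ@Gel against 5.13 and 4.15 RPM in Gel. Its groups overlapped, with a change of 0.01 ± 0.22 (adjusted p = 0.976), and -0.12 with the trend removed.

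The Tra2 proteins activate exons with GAA-rich enhancers and work together with SR proteins. Tra2b had 47.2 and 48.1 RPM in CuNZ@Gel, against 89.9 and 84.5 RPM in Gel, all in 1 region at chr16:22083920-22085101. Its groups were far apart relative to their spread, with a change of -0.86 ± 0.07 (limma adjusted p = 1.02e-08) and of -0.26 ± 0.08 with the trend removed (adjusted p = 0.00852). Tra2a, its paralogue, had 55.1 and 53.4 RPM in CuNZ@Gel against 72.8 and 70.4 RPM in Gel over 6 regions, a change of -0.39 ± 0.07 (adjusted p = 0.000147) that was not called with the trend removed (-0.07).

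Among the hnRNP genes, 14 of 16 were called lower and 0 higher, against 36.1% and 20.5% of all genes, with a median of -0.71. With the trend removed, 4 were lower and 0 higher, against 15.9% and 20.2%, and the median was -0.03. The H and F proteins bind runs of G. Hnrnph3 had the largest called fall of all members, with 69.0 and 70.5 RPM in CuNZ@Gel against 139 and 130 RPM in Gel (-0.93 ± 0.06, limma adjusted p = 4.74e-10). After removal of the trend it was at -0.25 ± 0.06 (adjusted p = 0.00286). Hnrnph1 fell by 0.78 and was also called with the trend removed (-0.22, adjusted p = 0.00229). Its strongest region, at chr11:50267791-50269460, was not called there (-0.11, limma adjusted p = 0.241). Weaker regions at chr11:50260013-50260973 (-0.33) and chr11:50261911-50262574 (-0.79) were called lower, and its remaining regions were not called. Hnrnpf had 133 and 131 RPM in CuNZ@Gel against 202 and 199 RPM in Gel, a change of -0.60 ± 0.05 (adjusted p = 5.35e-09) that with the trend removed was -0.05 (adjusted p = 0.480).

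Among the proteins of the A, B and D type, Hnrnpa0, which binds AU-rich elements of inflammatory messenger RNAs in macrophages, had 53.6 and 55.9 RPM in CuNZ@Gel against 89.7 and 119 RPM in Gel. The Gel libraries differed from each other by more than the CuNZ@Gel ones did, yet the groups did not overlap, and the change was -0.90 ± 0.09 (limma adjusted p = 1.22e-07). Without the trend it was -0.26 ± 0.09 (adjusted p = 0.0215). Hnrnpab fell by 0.80 and was not called with the trend removed (-0.13). Hnrnpd, whose protein AUF1 marks AU-rich messenger RNAs for decay, had low values of 11.4 and 10.2 RPM in CuNZ@Gel against 16.6 and 15.3 RPM in Gel. Its change of -0.52 ± 0.15 (adjusted p = 0.00489) lost its call without Gel replicate 1 (-0.47, adjusted p = 0.0738), while with the trend removed it was -0.66 ± 0.15 (adjusted p = 0.000847).

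Both hnRNP genes that were not called are of this type. Hnrnpa3 had 30.1 and 21.4 RPM in CuNZ@Gel against 29.0 and 30.1 RPM in Gel. The groups overlapped, with a change of -0.21 ± 0.13 (limma adjusted p = 0.178); without CuNZ@Gel replicate 1, which was the higher one, it was called at -0.45 (adjusted p = 0.00735). Its sign turned without CuNZ@Gel replicate 2 (0.0245) and with the trend removed (0.0383), not called in either. Hnrnpa2b1, which packages nascent transcripts and also senses viral DNA in the nucleus, was the 1 member whose CuNZ@Gel libraries both lay above the Gel libraries. It had 15.8 and 16.6 RPM in CuNZ@Gel against 13.7 and 12.4 RPM in Gel, and the change of 0.29 ± 0.14 was not called (adjusted p = 0.0822). On the genome background scale it was called lower (-0.70, adjusted p = 0.00679).

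The remaining hnRNP genes bind other sequences. Hnrnpl, which binds CA repeats, had 126 and 127 RPM in CuNZ@Gel against 204 and 211 RPM in Gel, the highest mean level of all members (-0.70 ± 0.05, limma adjusted p = 7.96e-10). Without the trend its sign turned, at 0.11 ± 0.05 (adjusted p = 0.0844). Hnrnpc, which binds runs of U, had 112 and 100.4 RPM in CuNZ@Gel against 181 and 170.2 RPM in Gel (-0.72 ± 0.06, adjusted p = 6.28e-09) and was at 0.03 with the trend removed. Hnrnpk, which binds runs of C, had 69.4 and 74.1 RPM in CuNZ@Gel against 118 and 138 RPM in Gel (-0.82 ± 0.07, adjusted p = 1.34e-08) and was at -0.10 with the trend removed (adjusted p = 0.289). Hnrnpm, which holds back splicing of inflammatory transcripts in macrophages, fell by 0.65 with groups of 32.9 and 33.4 RPM in CuNZ@Gel against 52.3 and 52.7 RPM in Gel, and was not called with the trend removed (-0.19). Hnrnpr fell by 0.43 and was at 0.16 with the trend removed, not called.

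The U family binds both RNA and chromatin. Hnrnpul2, which acts with Hnrnpul1 at broken DNA ends, had 100.1 and 103 RPM in CuNZ@Gel against 182 and 189 RPM in Gel (-0.86 ± 0.05, limma adjusted p = 1.61e-10). Hnrnpul1 had 108 and 109 RPM in CuNZ@Gel against 193 and 188 RPM in Gel (-0.81 ± 0.05, adjusted p = 2.53e-10). Both paralogues lay at -0.02 with the trend removed (adjusted p = 0.827 for Hnrnpul2 and 0.812 for Hnrnpul1). Hnrnpu, also called scaffold attachment factor A, fell by 0.46 ± 0.07 (adjusted p = 9.36e-06) and was at 0.00 with the trend removed.

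**Figure D2:**
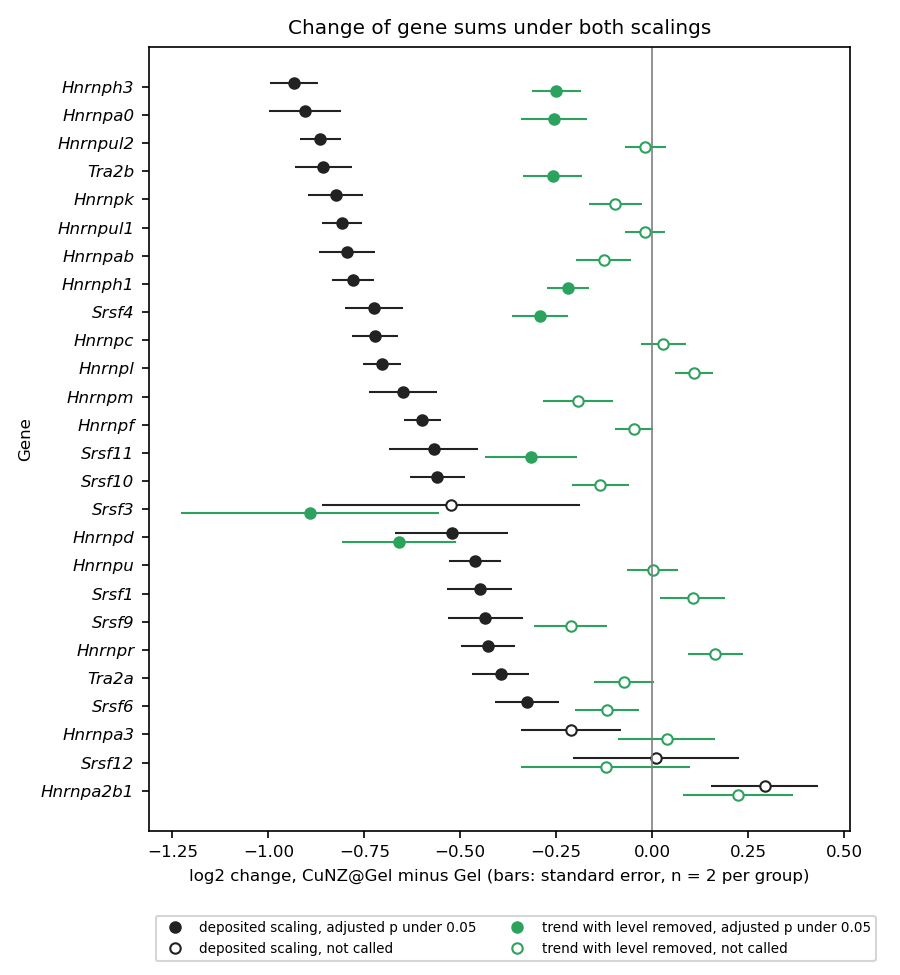
log2 change (CuNZ@Gel minus Gel) ± SE of each member gene with the deposited scaling (dark) and with the trend removed (green); filled marks have a limma adjusted p under 0.05. Most dark marks lie left of 0, while 8 green marks are filled, from Srsf3 at -0.89 to Hnrnph1 at -0.22.

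The 7 members called lower on both scales were Hnrnph3, Hnrnpa0, Tra2b, Hnrnph1, Srsf4, Srsf11 and Hnrnpd. Between these 2 scales, 15 other members were called with the deposited one only and Srsf3 only with the trend removed. The sign of Hnrnpa3, Hnrnpc, Hnrnpl, Hnrnpr, Hnrnpu, Srsf1 and Srsf12 turned with the trend removed, and none of these 7 was called there.

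With the deposited scaling, most strongest regions of the loci were called lower, and the weaker regions were called in both directions. Of the 26 strongest regions, 23 were called lower and 1 higher, against 40.2% lower and 15.7% higher for the strongest region of all genes, and their median change was -0.70 against -0.22. Of the other 43 member regions, 40 passed the filter on low values; 9 of these were called lower and 7 higher, with a median of -0.01. Over all 66 member regions tested, 32 were lower and 8 higher, against 21.9% and 21.2% of all regions. Member regions called lower had mean values from 3.91 to 154 RPM (median 45.2), and those called higher from 1.06 to 13.1 RPM (median 1.94). In the strongest decile of all regions, 20 of 20 member regions were lower against 86.9% of 7703 regions, with medians of -0.76 and -0.60. Once the trend was removed, 15 member regions were lower and 5 higher, against 13.8% and 18.8% of all regions. In the strongest decile, 4 of the 20 were then lower and 0 higher (median -0.10, against -0.03 for all regions of that decile). The shares of all regions of the decile, and of the strongest regions of all genes, called on this scale were not counted. Of the strongest regions, 7 of 26 were then lower and 1 higher (median -0.11, against -0.05 for the strongest region of all genes). Of the others, 8 of 40 were lower and 4 higher (median -0.15), so the contrast between strongest and weaker regions was not seen there. The shares of the weaker regions of all genes called were not counted on either scale. The contrast is thus described for the members and not set apart from the whole series. Strongest regions had a median of mean values of 62.4 RPM and the others 3.91 RPM, and cyclic loess removes change that goes with level. Its loss on that scale therefore cannot show whether the contrast is more than a difference of level.

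**Figure D3:**
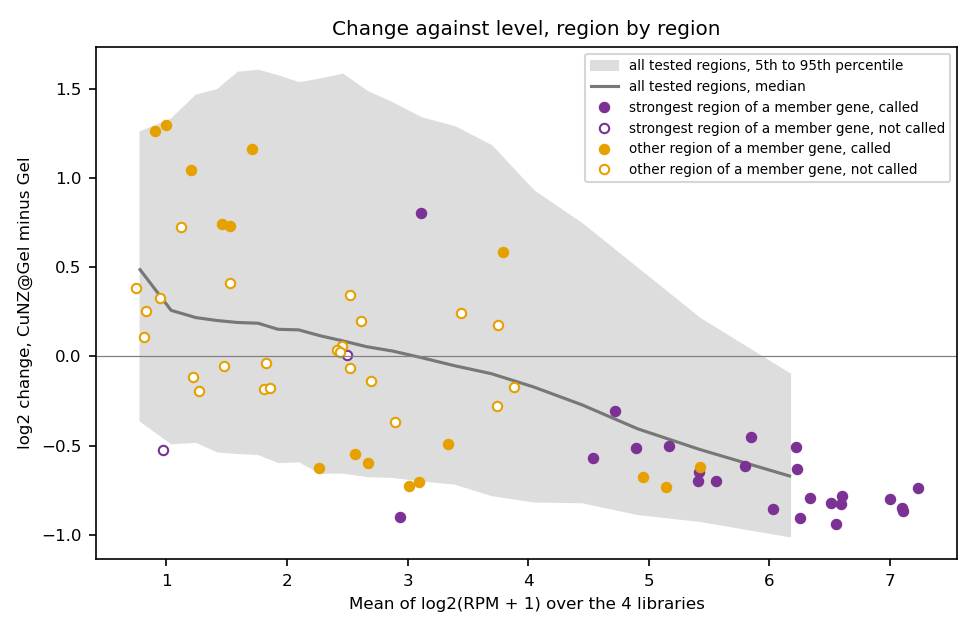
log2 change of each tested member region against its mean log2(RPM + 1) over the 4 libraries, with the median (line) and the 5th to 95th percentile (band) of all tested regions in 20 bins of level. The strongest regions of members (purple) cluster at high level below 0, where the median of all regions is also low (-0.67 in the top bin), and the called rises are mostly weak regions (yellow).

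The largest called falls of single regions followed the gene sums for Hnrnph3 (chr10:62859140-62860562, -0.94 ± 0.07), Hnrnpa0 (chr13:58276294-58277760, -0.90 ± 0.09), Hnrnpul2 (chr19:8796360-8797856, -0.86 ± 0.06) and Tra2b (-0.86 ± 0.08). The third largest was the strongest region near Hnrnpd, at chr5:100131485-100131926, which had 4.37 and 4.89 RPM in CuNZ@Gel against 11.1 and 8.11 RPM in Gel (-0.90 ± 0.20, limma adjusted p = 0.000164). Removing the trend left it called (-0.97, adjusted p = 3.08e-05). A peak was listed there in both Gel libraries and in no CuNZ@Gel library.

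Rises were called in 8 member regions near 6 genes (in 5 regions without Gel replicate 2), and 5 of these kept that call once the trend was taken out. The region of Hnrnpa2b1 at chr6:51435844-51436614 had 8.97 and 12.1 RPM in CuNZ@Gel against 5.72 and 5.39 RPM in Gel (0.80 ± 0.19, limma adjusted p = 0.000378; 0.75 with the trend removed, adjusted p = 0.000759). All 4 libraries had a peak there. The second region of that gene, at chr6:51429909-51431302, had 6.79 and 4.53 RPM in CuNZ@Gel against 7.99 and 6.99 RPM in Gel (-0.37, adjusted p = 0.141), so its sum joins regions whose values lay on opposite sides. Near Hnrnpf, the region at chr6:117877201-117878291 had 15.4 and 16.4 RPM in CuNZ@Gel against 11.4 and 9.28 RPM in Gel (0.58 ± 0.15, adjusted p = 0.00143; 0.66 with the trend removed, adjusted p = 0.000289), while the strongest region of that gene fell by 0.78 and was at -0.05 with the trend removed. On the genome background scale both of these rises turned sign without being called, at -0.13 for the Hnrnpa2b1 region (adjusted p = 0.680) and -0.40 for the Hnrnpf region (adjusted p = 0.172).

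The other rises were in regions with few reads. Near Tra2a, chr6:49219048-49219323 held 29 and 13 reads in CuNZ@Gel against 4 and 5 reads in Gel (1.30 ± 0.34, limma adjusted p = 0.00148), and chr6:49259321-49259706 held 17 and 29 reads in CuNZ@Gel against 9 and 11 reads in Gel (1.05 ± 0.31, adjusted p = 0.00443). Near Srsf6, chr2:162694117-162694345 held 16 and 21 reads in CuNZ@Gel against 3 and 4 reads in Gel (1.26 ± 0.33, adjusted p = 0.00139). Near Hnrnpr, chr4:136047388-136047902 held 24 and 58 reads in CuNZ@Gel against 23 and 17 reads in Gel (1.16 ± 0.28, adjusted p = 0.000536). Under removal of the trend, some of these calls were lost. The region of Hnrnpa3 at chr2:75500054-75500240 (0.73 ± 0.29, adjusted p = 0.0355) and a second Srsf6 region at chr2:162731113-162731367 (0.74 ± 0.30, adjusted p = 0.0370) were no longer called once it was taken out (adjusted p = 0.217 for Hnrnpa3 and 0.228 for Srsf6). There, the first Tra2a region, the Srsf6 region and the Hnrnpr region kept their calls, and the second Tra2a region did not (adjusted p = 0.0675). On the genome background scale only the first Tra2a region (0.82) and this Srsf6 region (0.83) were called higher. Each of these 2 had a peak in a single library, of CuNZ@Gel, as did the second Tra2a region. In all of these, both Gel libraries lay below the filter on low values. They were listed as regions and passed the filter only through their CuNZ@Gel reads. This selects for a rise, so their p-values cannot be taken at face value.

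A ratio of 2 regions of the same gene within a library does not depend on a single scaling factor per library, though it does change under cyclic loess, which moves strong and weak regions differently. The weaker Hnrnpf region stood at 20.9% and 22.7% of the strongest one in CuNZ@Gel, against 9.02% and 7.30% in Gel. The first Tra2a region stood at 9.73% and 3.23% in CuNZ@Gel against 0.398% and 0.520% in Gel, and the Hnrnpr region at 4.74% and 8.34% in CuNZ@Gel against 1.46% and 1.25% in Gel. In all 7 weaker regions called higher, both CuNZ@Gel ratios lay above both Gel ratios. These regions were picked for their rise, and the strongest regions they are set against were all called lower, so this order follows from the choice. Such ratios were not counted over all genes. They are a description with no test, and 2 libraries against 2 allow no exact permutation p below 0.333. Both a fall of the strong region and a rise of the weak one enter such a ratio. The part that the share of reads in regions relative to background plays in these ratios was not tested. In 5 of the 16 members with 2 or more regions, 1 region or more was called lower and another higher. The matching share over all genes was not counted, and 21.9% of all regions were called lower and 21.2% higher.

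**Figure D4:**
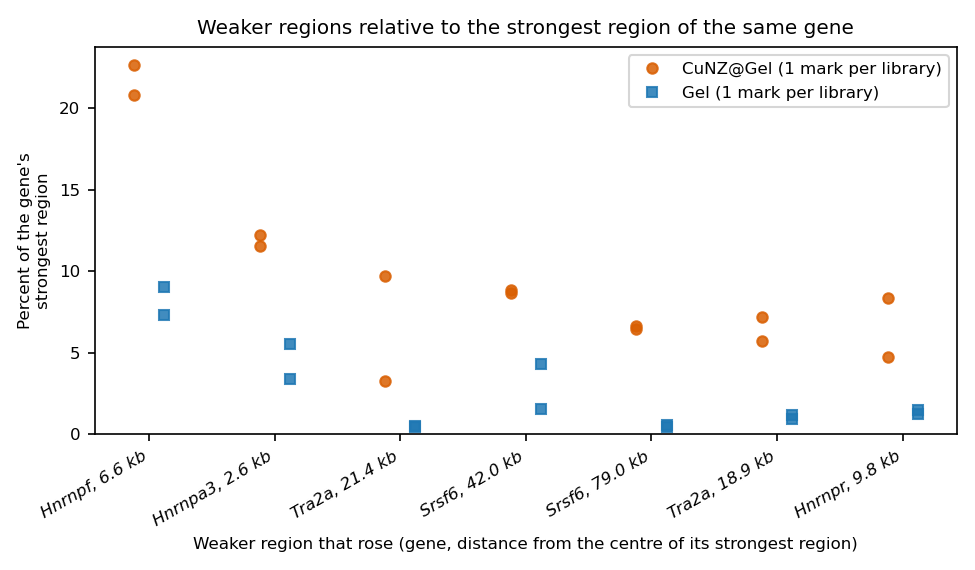
Level of each weaker region that was called higher, as a percent of the strongest region of the same gene, in each CuNZ@Gel library (circles) and each Gel library (squares). Labels give the distance between the centres of the 2 regions in kilobases. CuNZ@Gel marks lie above Gel marks in all 7, from Hnrnpf (20.9% and 22.7% against 9.02% and 7.30%) to the Hnrnpr region. This order follows from picking regions called higher beside strongest regions called lower.

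Some members were represented by weak regions while a stronger one close by was filed under another gene. For 8 members the strongest region within 20000 bases of their own regions carried another name and was stronger than any of theirs. The region named for Cbx3 lies 9139 bases from those of Hnrnpa2b1, and these genes are known to share a promoter and to be read in opposite directions. It had 72.3 and 72.6 RPM in CuNZ@Gel against 147 and 152 RPM in Gel (-1.03 ± 0.07, limma adjusted p = 8.03e-18; -0.28 with the trend removed, adjusted p = 0.000619), a fall beside the rise of the Hnrnpa2b1 region. Beside the weak Srsf3 region, 4850 bases away, a region named for Gm16196 had 51.2 and 46.6 RPM in CuNZ@Gel against 96.1 and 98.2 RPM in Gel (-0.98 ± 0.08, adjusted p = 1.38e-14; -0.36 with the trend removed, adjusted p = 0.000182). Beside the Hnrnpd regions, 3937 bases away, a region named for 4930524J08Rik had 47.2 and 51.3 RPM in CuNZ@Gel against 87.6 and 74.3 RPM in Gel (-0.70 ± 0.09, adjusted p = 1.51e-09), not called with the trend removed. These neighbours were chosen after their values were seen, and which gene each one serves cannot be read from the files.

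The authors' peaks were called on each library alone. A peak lay in 23 and 24 of the 26 strongest regions in CuNZ@Gel, against 26 and 25 in Gel, and 23 had one in every library. Among the other 43, peaks in every library were listed for 12, in Gel libraries alone for 17 and in CuNZ@Gel libraries alone for 7. The matching shares over all regions were not counted, so these numbers describe the members and set nothing apart from the whole series. Strongest regions were 296 to 4352 bases wide (median 1438) and the others 164 to 1595 bases (median 386). The whole lists were also shorter in CuNZ@Gel, with 42612 and 53273 peaks against 61757 and 59251 in Gel, and the part of this in the counts was not tested.

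Other genes of splicing were also mostly called lower with the deposited scaling, where 36.1% of all genes were lower and 20.5% higher. Of 15 tested genes for kinases, phosphatases and import factors that act on SR proteins, 12 were lower and 0 higher (median -0.39), led by Ppp1ca (-0.76 ± 0.08), a catalytic phosphatase subunit, and Clk1 (-0.70 ± 0.08), a kinase of SR proteins. Of 37 other splicing regulators, 25 were lower and 2 higher (median -0.48). Taf15 (-1.08 ± 0.08) and Syncrip (-0.91 ± 0.08), which encodes hnRNP Q, fell most, and Pcbp1, a protein that binds runs of C, rose by 0.32 ± 0.13 (limma adjusted p = 0.0381). Of 31 genes of the spliceosome core, 22 were lower and 1 higher (median -0.54). Sf3b1 (-0.86 ± 0.07), which helps to recognise the branch point, and Puf60 (-0.81 ± 0.08) fell most. Of 14 genes of nonsense-mediated decay and the exon junction complex, 8 were lower and 2 higher (median -0.35). Upf3a (-0.74 ± 0.07) and Casc3 (-0.69 ± 0.10) fell most, and Magohb, an exon junction subunit, rose by 0.84 ± 0.15.

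With the trend removed, the lists had 4 lower and 0 higher for SR kinases and import, 9 and 3 for other regulators, 10 and 2 for the spliceosome core, and 2 and 4 for decay and the exon junction, against 15.9% of all genes lower and 20.2% higher. Clk1 (-0.35), Taf15 (-0.48), Syncrip (-0.33), Sf3b1 (-0.48) and Puf60 (-0.26) stayed lower there, and Pcbp1 (0.40) and Magohb (0.61) stayed higher. Ppp1ca, Upf3a and Casc3 were not called there.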

How the data were processed

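ATAC-seq values of 2 CuNZ@Gel and 2 Gel libraries were analysed. The submitters' processing notes name build GRCm39 and the tools MACS2 2.2.8, Picard 2.27.5, Bowtie2 2.3.4.3, fastp 0.23.1 and SAMtools 1.17, without roles or order. The authors deposited log2 values for 80929 regions per library, each named by its nearest gene. Reversed as log2(RPM + 1), 100% of low values lay within 0.1 of a whole number of reads, which gave the reads per region. The deposited peak lists hold, per peak, a fold enrichment (ratio), -log10 p and q-values (-log10 q from 1.303) and a score; they are the authors' own and only describe peaks, apart from the genome background read from their folds. Merging them gave 80929 regions in the tables' order, and hence GRCm39 coordinates. Of 77099 regions with a reference chromosome, 77097 lay on it.

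Gene values are log2 of summed RPM plus a pseudocount of 1. A feature was kept if 2 or more libraries reached the equivalent of 10 reads at the median depth and all libraries together held 15, which left 25900 genes and 77014 regions. They were fitted across all genes, or all regions, in R 4.3.3 with limma 3.58.1, using two-sided tests, a variance trend on intensity and Benjamini-Hochberg adjustment over all features. For gene sums with the trend removed, cyclic loess was applied to regions before summing. The 4 rows that name no gene stayed out. Replicate numbers were not used to pair the libraries in the main fit. The gene fit was tested on simulated data with the noise of these libraries. It missed many of the smaller changes there and also part of the larger ones, so an absent call does not show an absent change. The region fit was not simulated. Values in every library are given for the 5 largest called falls, the 5 highest members, members not called, and the 5 largest region rises and falls; from other lists the 2 largest falls and the largest rise are named, except 1 gene that is not reported here. Srsf1, Srsf4, Srsf11, Tra2a, Hnrnpd, Hnrnpm, the second Hnrnpa2b1 region and the weaker Hnrnpf region were added after their values were seen, as were the printed promoters. The members and lists were chosen with earlier results of these data known.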

Additional observations from a re-analysis of the deposited data

How the results depend on the processing

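The members' call count depended on the scaling and on how a gene is summarised. Of 26 members, 22 were lower; 8 were with the trend removed by cyclic loess and 14 with the mean of log2 values of regions in place of the sum. The count of members called higher was 0, and 1 (Hnrnpa2b1) with totals of reads in regions or the strongest region only. Member regions called lower numbered 32, against 15 with the trend removed and 51 on the genome background scale, and those called higher 8, against 5 and 2, and 5 to 8 when 1 library was left out (5 without Gel replicate 2). Strongest regions called lower numbered 23, and 7 with the trend removed.

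The median member change was -0.58, and -0.12 with the trend removed, -0.34 with totals, -1.63 on the background scale, -0.63 with a pseudocount of 0.25, -0.70 for the strongest region only, -0.43 for the mean of log2 values and -0.63 to -0.60 when 1 library was left out. Genes called lower with the trend removed numbered 4 for SR kinases and import, 9 for other regulators, 10 for the spliceosome core and 2 for decay; with the mean of log2 values 7, 12, 14 and 5; with totals 5 for kinases and import and 5 for decay; and 13 for decay on the background scale. Signs turned, with no call, for Hnrnpa3 (0.0383), Srsf12 (-0.12), Hnrnpc (0.0296), Hnrnpl (0.11), Hnrnpr (0.16), Hnrnpu (0.00142) and Srsf1 (0.11) with the trend removed, and for Hnrnpa3 (0.21), Hnrnpc (0.0251), Hnrnpr (0.26), Srsf6 (0.22) and Tra2a (0.35) with the mean of log2 values; and for Hnrnpa3 with totals (0.0635). Leaving out 1 library at a time gave -0.45 to 0.0245 for Hnrnpa3 and -0.12 to 0.1355 for Srsf12. Scaled to background, Hnrnpa2b1 (-0.70, limma adjusted p = 0.00679) and Srsf12 (-0.86, adjusted p = 0.00200) turned and were called lower. The cause was not tested.

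Median-of-ratios scaling, both other filters on low values, both other pseudocounts and the replicate block changed no call of a member among those it tested; with the replicate block 22 members were lower. The deviations of same-numbered libraries from their group means had a correlation of 0.02 across regions. With 2 libraries per group, this cannot show whether same-numbered libraries were prepared together. Alternatives added after seeing the data were totals without CuNZ@Gel replicate 1 (16 members lower) and peaks of -log10 q at least 5 (22 of 26 strongest regions with a peak in every library, against 23). Low numbers of reads limit the weak regions most: 3 member regions, all near Hnrnpu, were too weak to test.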
